A study of Mus musculus with 20 samples.

Results

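The replication-dependent histone genes encode the linker histone H1 and the core histones H2A, H2B, H3 and H4 that package newly copied DNA. They were taken here as the protein-coding genes of the GENCODE M21 annotation whose symbol begins with Hist1h, Hist2h, Hist3h or Hist4h, which gave 67 genes of 21938 protein-coding genes in the mouse. The 67 genes comprised 6 of family H1, 18 of H2A, 18 of H2B, 12 of H3 and 13 of H4. Another 3 genes with matching symbols are annotated as pseudogenes and were left out of the counts. The label goes by symbol alone, and 3 of the genes, Hist1h1t, Hist1h2ba and Hist1h2aa, are known chiefly as testis histone genes.

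Histone genes of this kind are transcribed mainly in S phase, when the supply of histones has to keep pace with DNA synthesis. They lie in a few dense clusters and are short and mostly without introns. Transcription is switched on through NPAT, a coactivator found with these genes in nuclear histone locus bodies and phosphorylated by cyclin E and CDK2. Their messenger RNAs end in a conserved stem-loop bound by SLBP instead of a poly(A) tail.

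Open chromatin was mapped by ATAC-seq, which reads out where a transposase can cut DNA. The cells were ZHBTc4 mouse embryonic stem (ES) cells, whose endogenous Pou5f1, the gene of OCT4, is switched off by doxycycline (dox). All cells carried SNAP-tagged OCT4 from a lentiviral vector with a weak PGK promoter, fused either to a mitotic degron that removes it at the transition from mitosis to G1 (SNAP-MD-OCT4) or to an inactive, mutated degron (SNAP-MD\*-OCT4), together with YPet-MD, a fluorescent protein with the same degron. They were kept in serum with LIF, CHIR99021 and PD184352 and were sorted populations, not clones. For each construct, cells given dox for 40 h were separated by phase (Early G1, Late G1, S, Late S/G2) in 2 replicates each, and unsorted cells without dox were measured in 2 replicates, which gave 20 libraries in 10 groups.

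The data analysed here were the coordinates of 102373 peaks merged over the 16 dox-treated libraries. A listed peak says that a region was called open in at least 1 of them. The list holds no value per library, so the constructs and the phases could not be compared at any histone gene, no replicate error could be given, and the sequencing depth is unknown. A start site without a listed peak was not shown to be closed. Of 8 ES cell markers, 6 had a listed peak at most 1000 bp from the transcription start site (TSS), as had 66.1% of all protein-coding genes. With 8 markers these shares cannot be told apart. Pou5f1 had a peak of 1571 bp and Sox2 of 1849 bp, while the nearest peaks to the annotated 5' ends of Nanog and Esrrb were 1481 and 4663 bp away.

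Promoter sequences differ between the histone families, and short elements known from each family recur in them. The sequences below were read from GRCm38 on the strand of the gene and end before its TSS. In the H2B promoters, capitals mark the octamer ATGCAAAT, which reads ATTTGCAT on the strand of the gene. It is an element bound by POU factors such as OCT1, and OCT4 is a POU factor too. Whether OCT4 bound these promoters was not examined. They are shown because, of the 5 histone families, only H2A and H2B held the exact octamer.
Hist2h2be, chr3:96221058-96221100, plus strand: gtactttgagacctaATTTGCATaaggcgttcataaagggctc
Hist2h2bb, chr3:96269637-96269679, plus strand: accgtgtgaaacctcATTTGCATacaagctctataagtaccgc
Hist1h2bk, chr13:22035776-22035818, plus strand: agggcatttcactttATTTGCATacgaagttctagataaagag
Hist1h2bc, chr13:23684067-23684109, plus strand: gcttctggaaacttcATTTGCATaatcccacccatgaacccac
Hist1h2bb, chr13:23746629-23746671, plus strand: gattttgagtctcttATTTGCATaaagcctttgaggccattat
Hist1h2ba, chr13:23934293-23934335, minus strand: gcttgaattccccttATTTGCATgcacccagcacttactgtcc

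A further group of H2B promoters held ATTTGAAT, which differs from ATTTGCAT by C6A, counted from 1 at the 5' end. Capitals mark it below. The promoters of Hist1h2bq and Hist1h2br are identical over the stretch shown, and these genes return below among those without a listed peak.
Hist1h2bq, chr13:21810218-21810260, minus strand: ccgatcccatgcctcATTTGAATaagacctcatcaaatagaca
Hist1h2br, chr13:21833682-21833724, plus strand: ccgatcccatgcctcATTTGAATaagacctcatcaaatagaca
Hist1h2bj, chr13:22043137-22043179, plus strand: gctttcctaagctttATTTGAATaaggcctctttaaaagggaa
Hist1h2bf, chr13:23574234-23574276, minus strand: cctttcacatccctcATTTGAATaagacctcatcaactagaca

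In the H1 promoters, capitals mark AAACACA, the H1 box. All H1 promoters that held it are shown.
Hist1h1b, chr13:21780716-21780757, minus strand: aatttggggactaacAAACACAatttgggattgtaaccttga
Hist1h1e, chr13:23622647-23622688, minus strand: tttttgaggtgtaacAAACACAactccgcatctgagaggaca
Hist1h1t, chr13:23695682-23695723, plus strand: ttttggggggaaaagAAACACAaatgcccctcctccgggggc
Hist1h1c, chr13:23738680-23738721, plus strand: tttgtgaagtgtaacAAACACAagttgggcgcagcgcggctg

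In the H4 promoters, capitals mark GGTCCG, the core of the H4 element that the zinc finger protein HINFP binds. Those shown come from 3 chromosomes. The stretches of Hist1h4m and Hist1h4n, near-identical gene copies, are the same.
Hist2h4, chr3:96263354-96263394, minus strand: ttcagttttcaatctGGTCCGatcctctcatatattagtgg
Hist4h4, chr6:136804438-136804478, minus strand: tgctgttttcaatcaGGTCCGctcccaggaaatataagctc
Hist1h4m, chr13:21811684-21811724, plus strand: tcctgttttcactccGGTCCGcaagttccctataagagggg
Hist1h4n, chr13:21832218-21832258, minus strand: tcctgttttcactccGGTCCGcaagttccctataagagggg
Hist1h4d, chr13:23581506-23581546, plus strand: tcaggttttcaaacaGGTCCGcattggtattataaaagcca
Hist1h4c, chr13:23698479-23698519, minus strand: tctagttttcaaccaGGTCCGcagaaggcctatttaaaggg

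Nearly all histone genes had a listed peak over or near the TSS. A listed peak lay at most 1000 bp from the TSS of 62 of the 67 genes, or 92.5% (95% Wilson interval 83.7 to 96.8%, which covers counting error only), where the same held for 66.1% of all protein-coding genes. The TSS itself lay inside a peak for 57 genes (85.1%), against 58.8% of all protein-coding genes. The ribosomal protein genes, another set of short and highly expressed genes, gave 75 of 79, or 94.9%, so a share of this size was not confined to histone genes. The 11 other protein-coding genes between the histone genes had a peak in 5 cases, with peaks at Bola1, Trim17, Zfp184, Pom121l2 and Hfe and none at the 4 Slc17a genes, Prss16 or Trim38. Trim17 begins at the same annotated position as Hist3h2a, and Bola1 starts under the peak of Hist2h2ab.

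By family, all 12 H3 and all 13 H4 genes had a peak, as did 16 of 18 H2A, 16 of 18 H2B and 5 of 6 H1 genes. Among those with a peak, 5 had it beside and not over the TSS. These were Hist2h2aa1 at 52 bp, Hist1h4m at 329 bp, Hist1h1t at 361 bp, Hist2h3c2 at 510 bp and Hist2h3c1 at 537 bp. The last 2 were the genes just inside the limit of 1000 bp, and Hist1h2ap at 1235 bp and Hist1h1d at 1266 bp were just outside it. The 3 pseudogenes also began inside listed peaks, with widths of 1076 bp at Hist3h2bb-ps, 1139 bp at Hist1h2aj and 670 bp at Hist1h2al. The peaks at Hist3h2bb-ps and Hist1h2aj are the promoter peaks of Hist3h2a and Hist1h2bm.

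**Figure D1:**
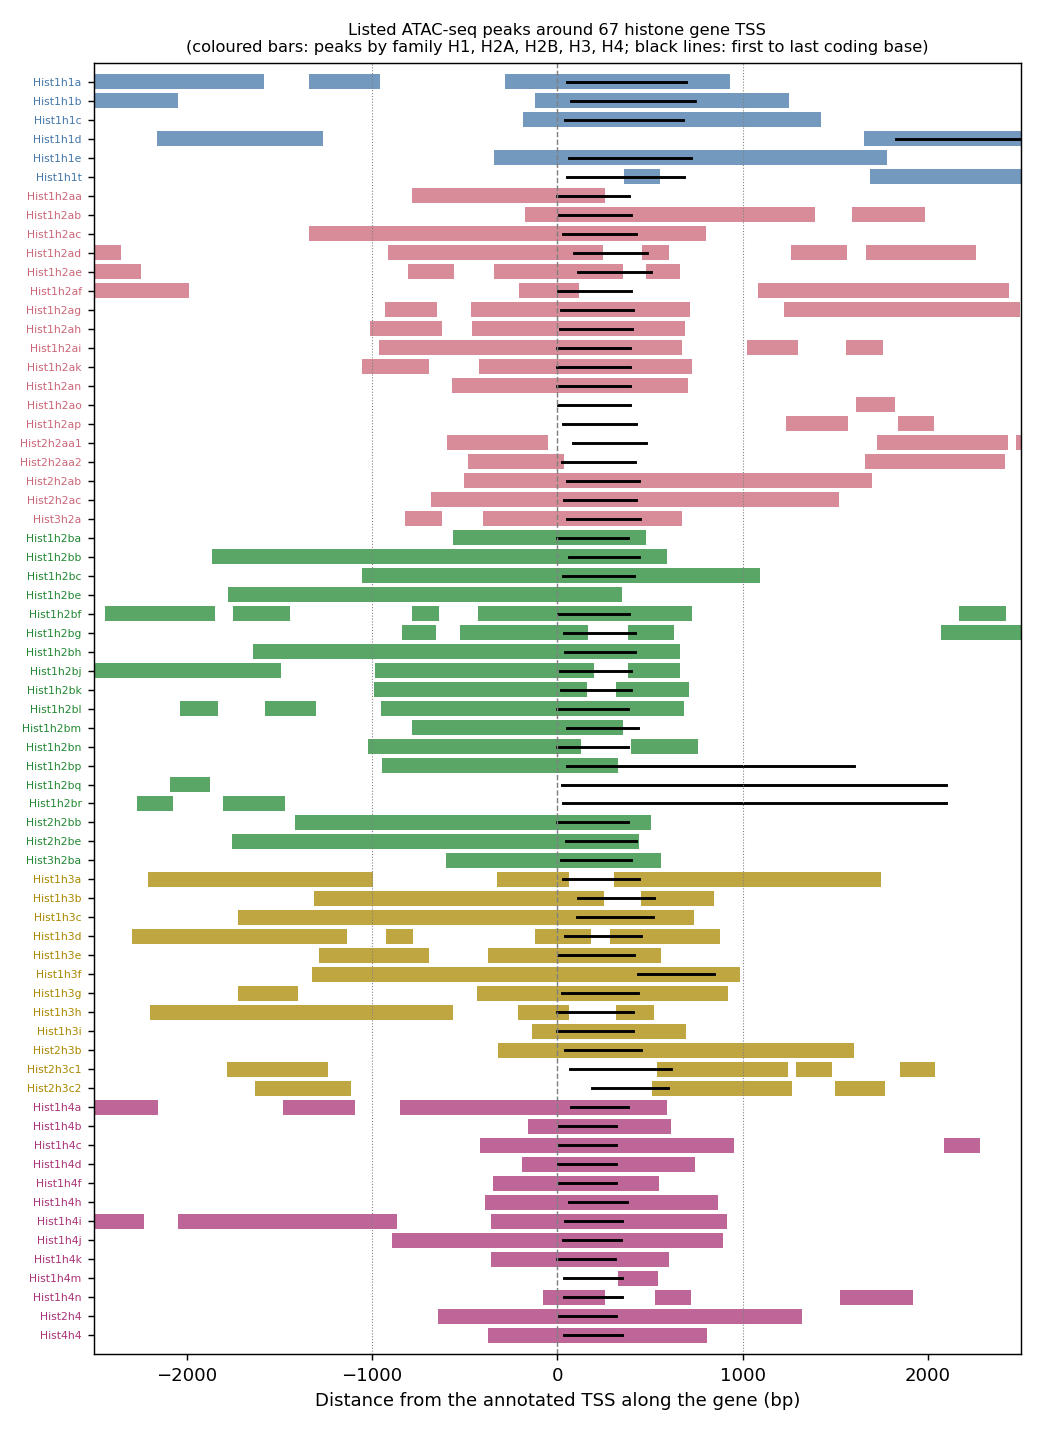
Listed peaks (coloured bars, by family) around the TSS of the 67 histone genes, 1 row per gene, with the distance from the TSS along the gene in bp on the x axis. Black lines run from the first to the last coding base, introns included, the dashed line is the TSS and the dotted lines mark 1000 bp. The bars cross the TSS in 57 rows, and the rows of Hist1h2bq, Hist1h2br, Hist1h2ao, Hist1h2ap and Hist1h1d have no bar between the dotted lines.

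The promoter peaks of histone genes had a median width slightly above that of all genes. The median width of the nearest peak was 1182 bp over the 62 genes (95% interval from order statistics 1139 to 1370, quartiles 903.75 and 1634), and 1083 bp over all protein-coding genes with a promoter peak (quartiles 847.25 and 1332). It was above 1083 bp for 40 of the 62, or 64.5%. Ribosomal protein genes had a median of 1198 bp. Widths ranged from 194 to 2460 bp, measured on peaks merged over libraries. The interval treats genes as independent, although neighbours share peaks, and counting each of the 46 distinct peaks once gave a median of 1153.5 bp.

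H1 genes, whose product binds the linker DNA between nucleosomes, had a median peak width of 1372 bp. The widest peak was that of Hist1h1e with 2125 bp, followed by Hist1h1c with 1607 bp, Hist1h1b with 1372 bp and Hist1h1a with 1212 bp. Hist1h1t, the testis H1, had the narrowest peak of all 62 genes, 194 bp, and this peak lay inside its coding sequence and not over its TSS. The testis genes Hist1h2ba and Hist1h2aa differed from it, with a shared peak of 1042 bp over both start sites. Hist1h1d had none within 1000 bp of its annotated 5' end. That end lies 1828 bp upstream of the start codon, and the start codon itself was inside a listed peak of 1618 bp.

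For H2A, which dimerizes with H2B, the median was 1153.5 bp, with the widest peak at Hist2h2ab and Hist2h2ac, which share a peak of 2199 bp, and the narrowest at Hist1h2af, 323 bp. H2B had a median of 1227.5 bp, from 696 bp at Hist1h2bg to 2460 bp at Hist1h2bb. Hist1h2be is an H2B gene with a distant annotated 5' end, 35168 bp upstream of its start codon and inside the 2125 bp peak of Hist1h1e. Its start codon lay in another peak, of 1360 bp.

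H3 and H4 form the tetramer at the centre of the nucleosome. The H3 median was 882.5 bp, the lowest of the 5 families, and the widths spread from 272 bp at Hist1h3h to 2460 bp at Hist1h3c, which shares its peak with Hist1h2bb. The H4 median was 1186 bp, from 212 bp at Hist1h4m to 1961 bp at Hist2h4. All family ranges overlapped widely.

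**Figure D2:**
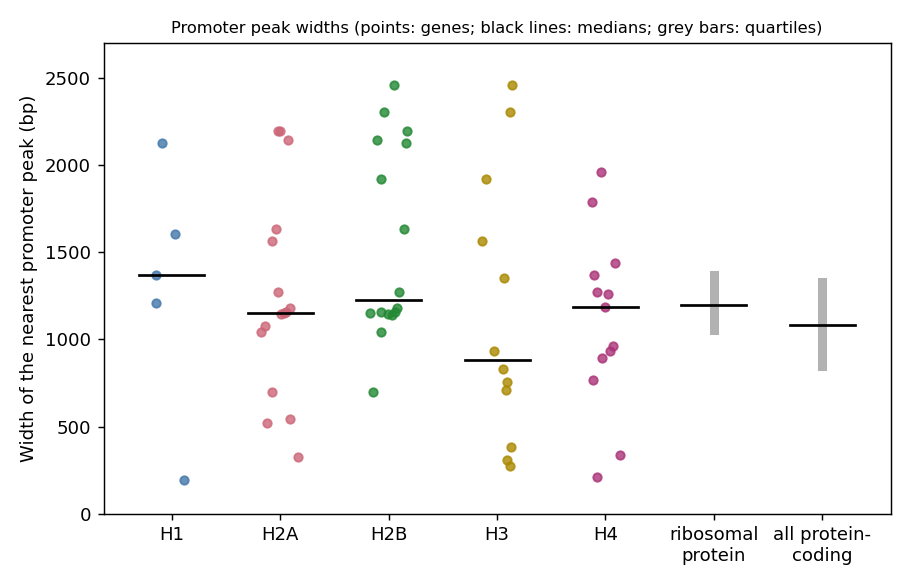
Width of the listed peak nearest the TSS in bp for the 62 histone genes with a peak within 1000 bp (points, spread sideways for legibility) by family, with the family median as a black line. For ribosomal protein genes and for all protein-coding genes the grey bar spans the quartiles. The family medians lie between 882.5 and 1372 bp and the points of every family overlap those of the others.

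The peaks covered most of these short genes and not their promoters alone. Cover of coding sequence was not computed for other genes of similar length, so it is not shown to be particular to histone genes. The median gene length was 539 bp, and the median extent of the peak was 483 bp upstream and 672 bp downstream of the TSS, against 436 and 622 bp over all protein-coding genes. The whole stretch from the first to the last coding base lay in listed peaks for 42 of 67 genes, including 4 of the H4 genes named above, Hist2h4, Hist4h4, Hist1h4d and Hist1h4c. In the other 25 genes a gap between neighbouring listed peaks cut into it or took it in whole. In 11 of the 25 the gap lay wholly within 1000 bp of the TSS with a peak on either side. These were 4 H3 genes (Hist1h3h, Hist1h3d, Hist1h3b and Hist1h3a), 4 H2B genes (Hist1h2bn, Hist1h2bk, Hist1h2bj and Hist1h2bg), Hist1h2ae and Hist1h2ad of H2A, and Hist1h4n.

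The gaps of these 11 genes were 98 to 271 bp long, with a median of 210 bp. As the reads were 75 nt long and coding sequences of histone genes resemble each other, each 75-mer was looked up in the genome. In these short gaps, 55.4 to 100% of the 75-mers began at positions where the sequence occurs more than once, with a median of 88.1%, against a median of 19.6% in the peaks on either side. At Hist1h3h, for example, the peak over the TSS was 272 bp wide and ended 60 bp into the gene, the gap was 258 bp with 98.4% of 75-mers repeated, and a peak of 203 bp followed. These gaps were picked for cutting into coding sequence, whereas the peaks beside them also cover promoters. Coding sequence inside peaks was not compared, so the medians do not separate gaps from coding sequence as such. In the remaining 14 genes the gaps were longer, from 969 to 56222 bp, and went both ways. In 9 of them, the near-identical copies described below, 85.2 to 100% of the 75-mers in the part of the gap within 1000 bp of the TSS were repeated. In the other 5 the share was 0% at Hist1h2bm, Hist1h1t and Hist1h2aa, 6.33% at Hist1h2bp and 14.2% at Hist1h2af. Coding sequence thus also lay outside listed peaks where the sequence was unique. How reads with several matches were handled is not given in the sources used here, and the part of repeated sequence in the gaps was not tested.

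Many histone genes shared a peak with a neighbour. In all, 31 genes shared 15 peaks, and 1 of these peaks served 3 genes, Hist2h2ab, Hist2h2ac and Hist2h2be. The count includes Hist1h2be, which shares the peak of Hist1h1e only through its distant annotated 5' end. As peaks were merged over libraries, 1 listed peak may join separate peaks of different libraries. Counting any other protein-coding gene as the neighbour, 32 of the 67 (47.8%) shared their nearest promoter peak, against 12.1% of all protein-coding genes, a background that includes genes without close neighbours. H2A and H2B genes commonly lie head to head, so that both start from the same short stretch of DNA in opposite directions. There were 12 such H2A/H2B pairs, with 175 to 305 bp between the start sites (median 258.5 bp), and 10 of the 12 lay under 1 peak, of 696 to 2199 bp. The exceptions were Hist1h2bq with Hist1h2ao and Hist1h2ap with Hist1h2br. The spacing of the pairs is far below 1083 bp, the median promoter peak width over all protein-coding genes. Head-to-head pairs of other genes were not counted. A thirteenth pair joined H2B and H3, Hist1h2bh with Hist1h3f, with 659 bp between the start sites and a peak of 2308 bp over both.

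The shortest stretch between paired start sites, from Hist1h2ae on the minus strand to Hist1h2bg on the plus strand, lay under a peak of 696 bp. It is printed whole because a single octamer, in capitals, lies between both genes, at position -55 from the TSS of Hist1h2bg.
Hist1h2ae to Hist1h2bg, chr13:23571221-23571395, plus strand: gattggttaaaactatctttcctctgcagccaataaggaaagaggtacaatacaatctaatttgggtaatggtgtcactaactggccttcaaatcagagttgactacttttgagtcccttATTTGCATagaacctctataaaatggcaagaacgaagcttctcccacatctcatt

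The 5 genes without a listed peak within 1000 bp fell into 2 kinds. Hist1h1d, with 0% of its 75-mers within 1000 bp of the TSS repeated in the genome, had the distant annotated 5' end given above. For Hist1h2bq, Hist1h2ao, Hist1h2ap and Hist1h2br, 100% of the 75-mers were repeated, and the nearest peaks were 1878, 1610, 1235 and 1471 bp away. These 4 genes form the pair of head-to-head H2A/H2B units on chromosome 13 that had no common peak. Hist1h2bq and Hist1h2br shared 99.9% of their 75-mers, and Hist1h2ao and Hist1h2ap shared 98.4%.

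Other near-identical copies had peaks that were narrow or beside the TSS. Hist1h4m and Hist1h4n, next to those units, had 89.0% and 86.4% repeated 75-mers, with 10.6% and 26.5% of the window within 1000 bp of the TSS in listed peaks. In the HIST2 cluster Hist2h3c1 and Hist2h3c2 had 75.7% and 74.7% repeated, with 23.2% and 24.5% of the window in peaks. Hist2h2aa1 and Hist2h2aa2 had 51.2% and 54.0% repeated, with 27.1% and 26.0% in peaks.

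A limit of 50% repeated 75-mers, chosen after these values were seen, set 10 genes apart. Of the 10, 6 had a peak within 1000 bp and 2 had the TSS inside one, while of the other 57 genes 56 had a peak and 55 had the TSS inside it. In the 10 genes, listed peaks held 6.53% of the repeated and 50.3% of the unique 75-mer starts. In the 57 genes they held 76.8% of the repeated and 63.9% of the unique ones, so there repeated positions were covered more often than unique ones. The part of repeated sequence in the missing peaks was not tested.

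**Figure D3:**
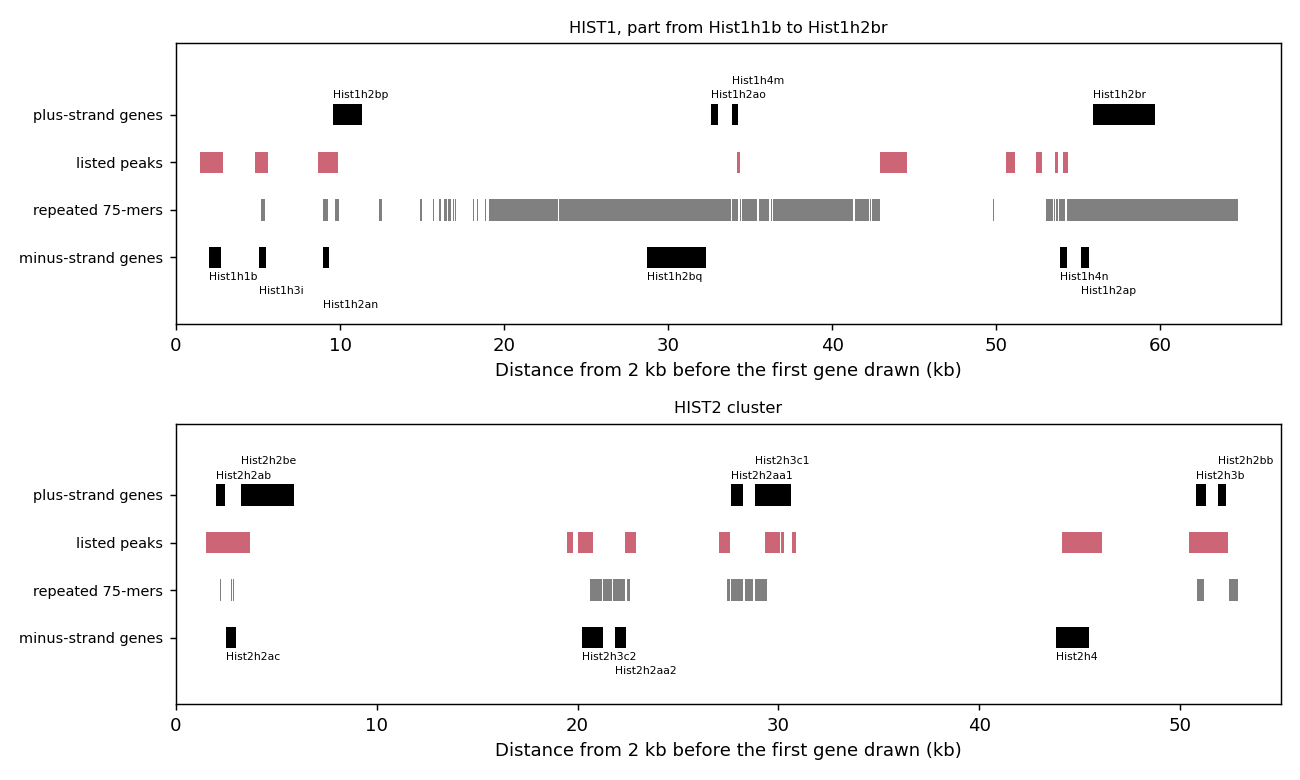
Genes, listed peaks and repeated 75-mers along the HIST1 segment from Hist1h1b to Hist1h2br (top) and along the HIST2 cluster (bottom), with distance in kb on the x axis and 1 row each for plus-strand genes, peaks, repeated 75-mers (runs over 20 bp) and minus-strand genes. Long grey runs of repeated 75-mers cover Hist1h2bq, Hist1h2ao, Hist1h2ap and Hist1h2br, where no peak is drawn within 1000 bp of the TSS.

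**Figure D4:**
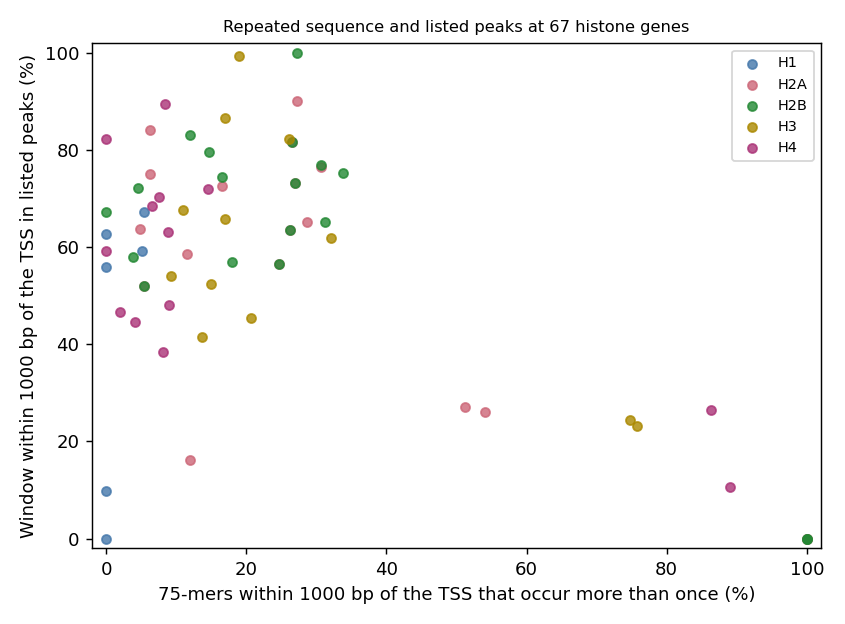
Share of 75-mers within 1000 bp of the TSS that occur more than once in the genome (x axis, %) and share of the same window in listed peaks (y axis, %) for each of the 67 histone genes, coloured by family. Paired genes share windows and some points lie on top of each other. The 10 genes at or above 50% on the x axis have 0 to 27.1% of their window in peaks, and Hist1h1d is the point at 0% on both axes.

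The 67 genes lay in 5 stretches, taken from the first to the last TSS with 1000 bp added and neighbours at most 500000 bp apart. HIST2, at chr3:96218865-96270752, was 51.9 kb long and held 10 genes and 10 peaks, of which 7 lay within 1000 bp of a histone TSS. Hist4h4 lay alone on chromosome 6 with a peak of 1186 bp, and Hist3h2ba and Hist3h2a on chromosome 11 with peaks of 1159 and 1076 bp. HIST1 was made of 2 stretches on chromosome 13. The stretch at chr13:21715143-22044214 was 329 kb long and held 23 genes, of which 19 had a peak, and the stretch at chr13:23530050-23935462 was 405 kb long and held 31 genes, of which 30 had a peak.

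In all 5 stretches together, 114 peaks were listed and 50.9% of them (95% Wilson interval 41.8 to 59.9%) lay within 1000 bp of a histone TSS. The interval treats neighbouring peaks as independent. The stretches were drawn from the histone TSS themselves, so this share depends on how they were drawn. The share of all listed peaks near a protein-coding TSS was not computed, so 50.9% is a description only. The distal peaks, over 1000 bp from any annotated TSS, were unevenly placed. The 329 kb stretch held 34 of them among 60 peaks, 29 of which lay in the 201825 bp without histone genes between Hist1h2br and Hist1h2ah, with a median width of 459 bp. The 405 kb stretch held 11 among 40 peaks. These included the 1618 bp peak over the start codon of Hist1h1d and the 1360 bp peak over that of Hist1h2be. For both, an annotated 5' end and not distance from a histone gene decided the class.

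Motifs were counted as exact letters on either strand from 250 bases before to 50 after the TSS, and the position given is that of the first base of the match on the strand of the gene, with -1 as the base before the TSS. Windows of head-to-head genes overlap, so both genes of a pair may count the same match. A match is a description of the sequence and not of binding.

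The octamer occurred in 8 of 18 H2B and 7 of 18 H2A windows and in no H1, H3 or H4 window, against 1.57% of all protein-coding genes. In H2B it began between positions -164 and -25, in Hist2h2be, Hist2h2bb, Hist1h2bm, Hist1h2bk, Hist1h2bg, Hist1h2bc, Hist1h2bb and Hist1h2ba, and read ATTTGCAT on the strand of the gene in all 8. Of the 7 H2A genes, Hist2h2ac, Hist1h2ah, Hist1h2ae, Hist1h2ac and Hist1h2aa were partners of these H2B genes in head-to-head pairs, and Hist3h2a and Hist1h2ab were not. Over whole peaks, 12 of 46 distinct histone promoter peaks (26.1%) held an octamer, and 2.71% of the promoter peaks of all protein-coding genes.

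The variant ATTTGAAT was looked for after the H2B promoters had been read. It occurred in 7 of the 10 H2B windows without an exact octamer, those of Hist1h2bp, Hist1h2bq, Hist1h2br, Hist1h2bj, Hist1h2bh, Hist1h2bf and Hist1h2be, and in 1.12% of all windows. It was not limited to H2B, as 6 of 18 H2A windows held it too and 12 of 18 held the octamer or the variant, while no H1, H3 or H4 window did. Windows of paired genes overlap here as well. The window of Hist1h2be is that of its distant 5' end. With Hist1h2bb, which held both forms, 15 of 18 H2B windows held the octamer or this variant. Allowing any 1 mismatch gave 16 of 18 H2B and 15 of 18 H2A windows and 1 each in H1, H3 and H4, but 16.7% of all windows then matched as well. The distance from the first base of the motif to the start codon varied. For the exact octamer it ran from 79 bp at Hist1h2bm to 164 bp at Hist1h2ba. For the variant it was 71 bp at Hist1h2bf, 74 bp at each of Hist1h2bp, Hist1h2bq and Hist1h2br, 78 bp at Hist1h2bj, 87 bp at Hist1h2bb and 211 bp at Hist1h2bh, and it was 35198 bp at Hist1h2be.

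The H1 box AAACACA occurred in 4 of 6 H1 windows, Hist1h1b, Hist1h1e, Hist1h1t and Hist1h1c, where it began between positions -117 and -113. It was found in 6.40% of all windows, in 1 of 18 H2A, 3 of 18 H2B and 1 of 12 H3 windows, and in no H4 window. The windows of Hist1h1a and Hist1h1d did not hold these letters, and the window of Hist1h1d is that of its distant 5' end. Hist1h1t, with its peak of 194 bp off the TSS, carried the H1 box at position -117, as did Hist1h1b.

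The H4 core GGTCCG occurred in 12 of 13 H4 windows, all except Hist1h4a, between positions -80 and -11, and in 9.60% of all windows. Matches outside the family were 1 of 18 H2B and 2 of 12 H3 windows. The 12 included Hist1h4m, whose TSS lay 329 bp from a peak, and Hist1h4n, whose TSS was in a peak of 335 bp.

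General promoter elements were spread differently over the families. CCAAT, bound by NF-Y, occurred in all 18 H2A and all 18 H2B windows, in 11 of 12 H3 and 5 of 6 H1 windows, but in 4 of 13 H4 windows, against 39.0% of all windows. TATAAA occurred in 4 of 6 H1, 12 of 18 H2A, 10 of 18 H2B, 4 of 12 H3 and 7 of 13 H4 windows, against 12.6%. Its median position was -57.0 in H2A but -185 in H2B, where windows reach into those of paired genes. GGGCGG, the GC box of SP factors, occurred in 10 of 13 H4 and 4 of 6 H1 windows but in 7 of 18 H2A, 5 of 18 H2B and 2 of 12 H3 windows, against 43.0%. TTTNGCGC, an E2F-type site, occurred in 7 of 18 H2A and 7 of 18 H2B windows, again with windows that overlap, and in none of the other families, against 1.66%. In H2B every E2F-type match was on the opposite strand and began between positions -230 and -164. Hist1h2bk held an octamer at position -79 and an E2F-type site at position -230, and Hist1h2bm held them at positions -25 and -164. The E2F-type site of Hist1h2bk is the same one counted at position -79 of its head-to-head partner Hist1h2ah.

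**Figure D5:**
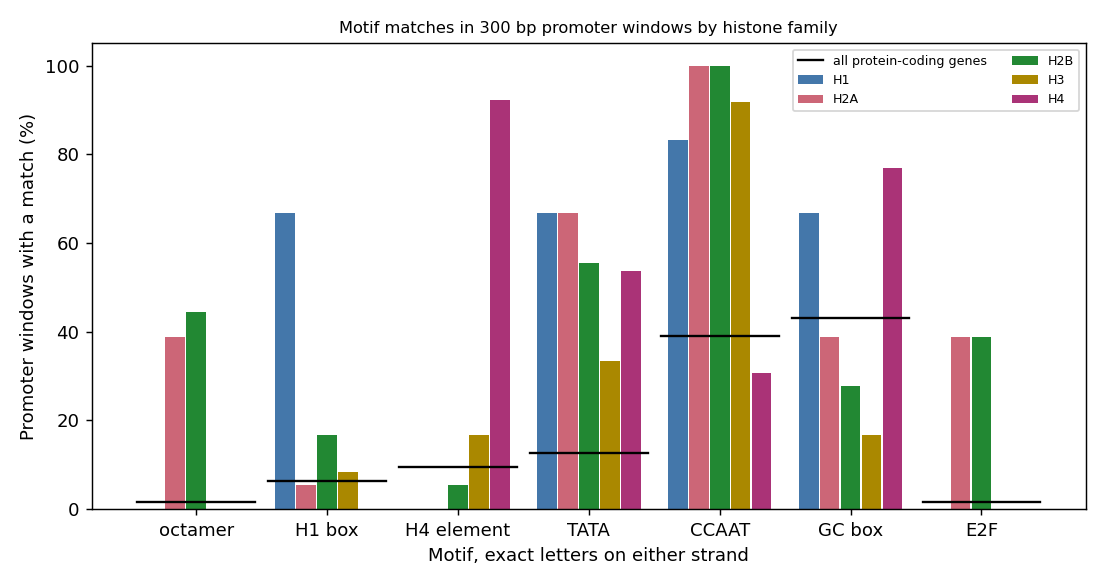
Share of promoter windows (y axis, %) with an exact match of each motif on either strand in the 5 histone families (coloured bars), with the share of all 21938 protein-coding genes as a black line. The H4 element reaches 92.3% in H4, the H1 box 66.7% in H1, and the octamer and E2F bars stand in H2A and H2B alone.

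The stem-loop at the 3' end is the mark that SLBP reads in histone messenger RNA. Its exact pattern was found within 300 bp after the stop codon in 57 of 67 histone genes and in 0.283% of all protein-coding genes, 62 in all. The 5 others were H2afx and H2bfm, which are histone genes outside the symbol rule, and Btbd10, Hnmt and Parp11. The match began 24 to 59 bp after the stop codon. It lay inside a listed peak in 48 of the 57 genes. The genes are short, with a median length of 539 bp, and their peaks reached a median of 672 bp downstream of the TSS. Over all protein-coding genes this extent was 622 bp. The count therefore goes with gene length and is not a result about the stem-loop. No such share was computed for other short genes. The forms found are printed as DNA, with the arms of the stem at either end and the loop in the middle. The first was common to all families but H4, the third and the fourth were found in H4 only.
Stem-loop of 38 genes: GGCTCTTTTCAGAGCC
Stem-loop of 9 genes: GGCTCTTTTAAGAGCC
Stem-loop of 8 H4 genes: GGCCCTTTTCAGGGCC
Stem-loop of Hist1h4j and Hist1h4b: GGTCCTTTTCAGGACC

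The 10 genes without an exact match there were Hist2h2ac, Hist2h2be, Hist2h4, Hist1h2an, Hist1h2bp, Hist1h2bq, Hist1h2br, Hist1h4i, Hist1h3g and Hist1h4a. In a search over 1200 bp after the start codon, added after these values were seen, Hist1h2bp, Hist1h2bq and Hist1h2br held the exact form 409, 411 and 411 bp after the start codon, where the annotation runs a longer, spliced coding sequence past it. With 1 mismatch allowed, 65 of 67 genes matched, and 1.81% of all protein-coding genes. Hist1h3g matched with 2 mismatches. The best match of Hist2h2be had 3 mismatches and began 51 bp after the start codon, inside the coding sequence, so no stem-loop was found there. Of the 4 genes whose promoters had only repeated 75-mers and no listed peak, each therefore held the stem-loop.

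The genes that act on histone genes and histones lay under peaks as well. Of 17 genes for transcription and 3' processing of histone messenger RNA, 16 had a peak within 1000 bp of the TSS, with a median width of 1270 bp, against the 66.1% of protein-coding genes given above. The coactivator Npat had a peak of 1126 bp, its partner Casp8ap2 of 1064 bp, the H4 factor Hinfp of 900 bp and the octamer factor Pou2f1 of 1806 bp. The stem-loop binding protein gene Slbp had a peak of 1309 bp, and Lsm10 and Lsm11, subunits of the U7 particle that cleaves histone transcripts, had peaks of 552 and 1280 bp. The exception was Zfp473, which encodes another U7-associated protein, with the nearest peak 2031 bp from its annotated 5' end. Cdk2, Ccne1 and Ccne2, the kinase and cyclins that phosphorylate NPAT, had peaks of 1260, 1587 and 1844 bp.

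All 8 genes listed for histone chaperones and carriers, among them the acetyltransferase gene Hat1, had a peak, against the 66.1% of protein-coding genes given above. Ribosomal protein genes gave 94.9%, so high shares were not confined to genes that act on histones. The median width was 1258 bp, from 915 bp at Ipo4, an importin, to 1868 bp at Nasp, a chaperone of H3 and H4. Of 12 histone genes outside the symbol rule, most of which encode replacement variants made outside S phase, 10 had a peak, with a median width of 1398 bp. They included H2afz with 1963 bp, H3f3a with 1478 bp, Cenpa of the centromeric H3 with 913 bp and H2afx with 1430 bp. H3f3b, with a peak 1953 bp from its annotated 5' end, and the oocyte linker histone gene H1foo, with the nearest peak 17545 bp away, had none within the limit.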

How the data were processed

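The authors aligned 75-nt paired reads to GRCm38 (mm10) with STAR 2.6.1c, removed duplicates with Picard and called peaks with MACS 2.1.1.20160309 on read pairs. BEDTools joined the peaks of the 16 dox-treated libraries. The list the authors deposited has 3 columns, chromosome, start and end, without score or count. Its coordinates are printed counted from 1. The methods name a filter on peaks over 5 kb, input peaks and blacklisted regions, yet 7 listed peaks are wider than 5000 bp. Each gene counted once, at its GENCODE M21 5' end. Old symbols were matched to RefSeq GRCm38.p6 by synonym for 67 of 67 genes. Sequences came from that genome. A 75-mer was repeated if it or its reverse complement occurred again on chromosomes 1-19, X or Y. Motif and peak searches were tested on simulated data. The members, lists, motifs and alternatives were chosen with earlier results of these data known. Genes named were those without a peak, the widest and narrowest per family, those with family motifs, those at the limit and the lists. Others named in the text, such as paired, gapped and repeated genes, were chosen after their values were seen. No test across genes was run, and the fit of MD-OCT4 against MD\*-OCT4 needs values per library and was not run. Calculations used Python 3.11.15, numpy 2.4.6, scipy 1.17.1 and matplotlib 3.10.9.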

Additional observations from a re-analysis of the deposited data

How the results depend on the processing

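Of 34 alternative settings, 28 left the count, median or share within the set margin. The number of histone genes with a peak ranged from 57 of 67, with the peak over the TSS itself, to 67 of 67 within 2000 bp. From start codons it was 63 and from RefSeq starts 58 of 62, both chosen after seeing the data. The H2B octamer count of 8 became 0 on the gene strand only, where the reverse complement is read, 0 with the letters reversed and 16 with up to 1 mismatch, the last chosen after seeing the data. Reversed letters gave 1 H1 gene for AAACACA and 2 H4 genes for GGTCCG. The share of peaks at a histone TSS rose from 50.9% to 76.3% with members at most 100000 bp apart, since long stretches without histone genes then fall outside. No paired analysis was possible because values of single libraries were not analysed here. Depth is unknown, regions under input or blacklist filters may remain, and whether the list is complete was not established.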
